A study of Mus musculus with 9 samples.

Results

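Collagen hydroxylases and lysyl oxidases are the enzymes that modify procollagen in the endoplasmic reticulum and cross-link collagen and elastin outside the cell. The group was fixed by gene name as 10 genes of the 54532 in the deposited table: the lysyl oxidases Lox, Loxl1, Loxl2, Loxl3 and Loxl4, the lysyl hydroxylases Plod1, Plod2 and Plod3, and the prolyl 4-hydroxylase alpha subunits P4ha1 and P4ha2. Their mRNA was followed in ST2 cells, a mouse bone marrow stromal line that the labels give as wild-type mesenchymal stem cells from bone. The 9 libraries form groups of 3, taken after 72 h: cells given vehicle (Veh), cells given recombinant human Wnt3a at 50 ng/ml (rhWnt3a), and cells given the same rhWnt3a dose with OSMI at 20 µM (rhWnt3aOSMI). OSMI inhibits OGT, the enzyme that attaches O-GlcNAc to proteins. The sources differ on the last group. The sample titles and the study's account of its results name rhWnt3a with OSMI, whereas the treatment label, the series' design text and the study's methods name OSMI alone, and no other group received OSMI. The difference between rhWnt3aOSMI and rhWnt3a is called added OSMI here after the titles, and every such value depends on that reading. All 9 libraries come from 1 established line, and nothing in the labels ties a library to a separate culture, although the study speaks of biological replicates, so p-values measure the spread between these libraries.

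Prolyl 4-hydroxylase turns proline into 4-hydroxyproline, which holds the collagen triple helix together at body temperature. It is a tetramer of alpha subunits, which carry the catalytic site, and beta subunits, which are protein disulfide isomerase, the product of P4hb. Lysyl hydroxylases modify lysines of the same chains: the product of Plod2 acts mainly on the telopeptides at the chain ends, those of Plod1 and Plod3 on the helix, and the Plod3 enzyme also glycosylates hydroxylysine. Lysyl oxidases are secreted copper enzymes that oxidise lysine and hydroxylysine so that neighbouring chains can cross-link. All of these hydroxylases need iron, oxygen and 2-oxoglutarate, and P4ha1, P4ha2 and Plod2 are known targets of hypoxia-inducible factor.

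Levels are given as CPM, the reads of a gene relative to its library total after TMM scaling, which evens out differences in composition, and levels of different genes are compared only per length, as the deposited FPKM. The libraries held 16135898 to 17583945 counts. Fold changes come from 1 edgeR quasi-likelihood fit of the 9 libraries over 14004 tested genes, and a call needed both a p under 0.05 after Benjamini-Hochberg adjustment and a log2 fold change above 0.5 or below −0.5. Within groups, Veh replicate 3, rhWnt3a replicate 2 and rhWnt3aOSMI replicate 3 each lay apart from the other pair. The first axis of the deviations from the group means held 54.8% of their variance, with Veh replicate 3, rhWnt3a replicate 2 and rhWnt3aOSMI replicates 1 and 2 on one side (side A) and the other 5 libraries on the other (side B). Each side holds 1 or 2 libraries of a group, and differences within the sides are given, without a test, for some comparisons of members. Leaving out the 3 libraries together leaves Veh and rhWnt3a on side B and rhWnt3aOSMI on side A, so that in those values OSMI and the axis cannot be told apart.

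Lox was by far the most abundant lysyl oxidase and was lower in each treated group. It encodes the prototype enzyme of the family and lies on chromosome 18. Its level was 2912, 2867 and 2586 CPM in the 3 Veh libraries, 1687, 1607 and 1597 CPM with rhWnt3a, and 1097, 1118 and 1212 CPM with rhWnt3aOSMI. The 3 groups did not overlap. Lox fell with rhWnt3a by a log2 fold change of −0.77 (SE 0.14, adjusted p = 0.00659), and the fall from Veh to rhWnt3aOSMI was −1.29 (SE 0.14, adjusted p = 3.55e-04). The step from rhWnt3a to rhWnt3aOSMI had a log2 fold change of −0.51 (SE 0.14, 95% interval −0.82 to −0.20) and missed the threshold with an adjusted p of 0.0666. That step passed it when rhWnt3aOSMI replicate 3 was left out (−0.56, adjusted p = 0.0424) and in a DESeq2 test (−0.51, adjusted p = 4.23e-04). Within side A it was −0.54 and within side B −0.44. The summed level of 3 chondrocyte markers was also lower in the treated libraries, at 286 to 408 CPM with Veh against 78.3 to 128 CPM, and their part in the Lox and Plod2 results was not tested.

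**Figure D1:**
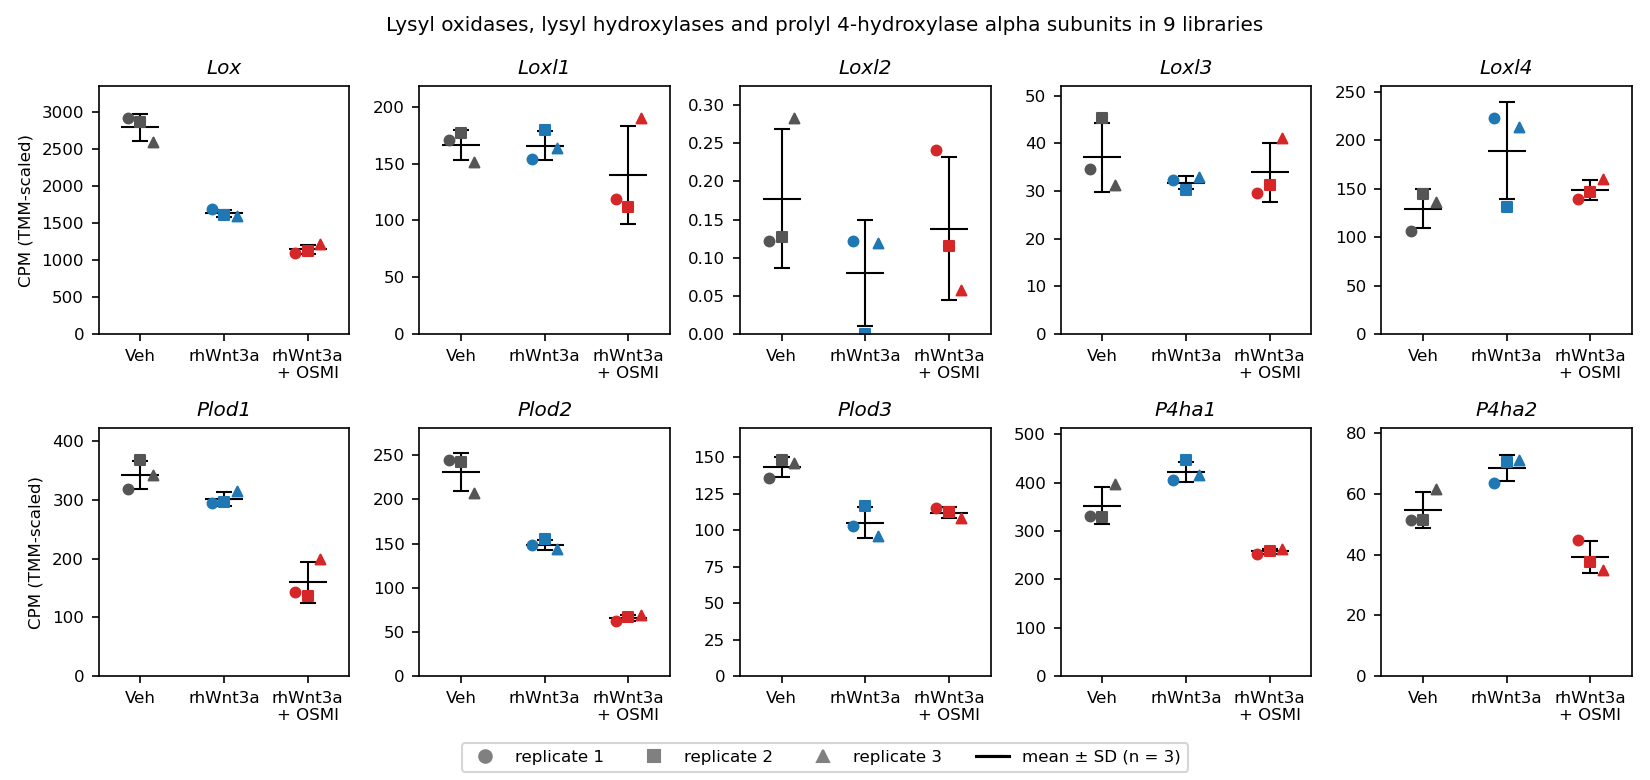
Each panel plots the CPM (TMM-scaled, linear axis from 0) of a member in the 9 libraries, by group, with marker shape for the replicate number and a line with bars for the mean ± SD (n = 3). Lox and Plod2 step down from Veh to rhWnt3a and again to rhWnt3aOSMI, Plod1 is low in the 3 rhWnt3aOSMI libraries, P4ha1 and P4ha2 have their lowest values there, and Loxl2 stays at 0 to 5 counts a library.

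Loxl4 had its highest values in 2 of the rhWnt3a libraries. It encodes a lysyl oxidase with scavenger receptor domains, as do Loxl2 and Loxl3, and lies at chr19:42593982-42612813 (GRCm38). Its level was 107, 145 and 137 CPM with Veh, 223, 132 and 214 CPM with rhWnt3a, and 140, 147 and 160 CPM with rhWnt3aOSMI. Replicate 2 of rhWnt3a lay inside the Veh range, while the other pair lay above every other library. The log2 fold change with rhWnt3a was 0.55 (SE 0.20, 95% interval 0.09 to 1.01, adjusted p = 0.153). Without rhWnt3a replicate 2 it was 0.76 (adjusted p = 0.0212), within side B 0.81, and within side A, with 1 library a group, −0.05. With the side of the axis as a term, Loxl4 was called higher with rhWnt3a, under the limits given below for P4ha2. Adding OSMI gave −0.35 (SE 0.20, adjusted p = 0.334) in all 9 libraries.

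Loxl1 (chr9:58287738-58313186), whose enzyme is linked to elastic fibres, was measured at 166 ± 13.1 CPM with Veh, 166 ± 12.9 CPM with rhWnt3a and 140 ± 43.2 CPM with rhWnt3aOSMI (SD, n = 3). The rhWnt3aOSMI libraries were split, with 119 and 112 CPM in replicates 1 and 2 against 190 CPM in replicate 3, the highest Loxl1 level of the 9. The rhWnt3a change was −0.003 on the log2 scale (95% interval −0.44 to 0.44), and that from Veh to rhWnt3aOSMI was −0.25 (95% interval −0.69 to 0.19, adjusted p = 0.430). Without rhWnt3aOSMI replicate 3 the latter was −0.52 (adjusted p = 0.0281). Within the sides the Veh to rhWnt3aOSMI difference was −0.39 on side A and 0.13 on side B.

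Loxl3 (chr6:83034173-83052562) was the least abundant lysyl oxidase tested, at 37.0 ± 7.30, 31.8 ± 1.40 and 34.0 ± 6.17 CPM in the 3 groups (SD, n = 3). All of its group ranges overlapped, and its intervals ran from −0.61 to 0.17 with rhWnt3a and from −0.30 to 0.49 for added OSMI. Exons of Htra2 on the other strand share 11.6% of the exonic bases of Loxl3, and reads from the shared part cannot be told apart unless the counting used strand, which is not given in the sources used here. Loxl2 (chr14:69609068-69695834) gave 2, 2 and 5 counts with Veh, 2, 0 and 2 with rhWnt3a and 4, 2 and 1 with rhWnt3aOSMI. It did not pass the filter on low counts and was not tested. A count of 3, the limit that a count of 0 allows, corresponds to 0.170 to 0.191 CPM in these libraries. Stretches that cover 47.9% of the Loxl2 transcript are at least 97% identical to 15 other genes, so that its few counts are uncertain.

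Plod2 (chr9:92542223-92608428), the telopeptide lysyl hydroxylase, fell at both steps. It was at 244, 242 and 207 CPM with Veh, 148, 155 and 143 CPM with rhWnt3a, and 62.3, 67.1 and 68.9 CPM with rhWnt3aOSMI. The groups were wide apart, since the highest rhWnt3aOSMI library had less than the lowest rhWnt3a library. Plod2 changed by −0.64 with rhWnt3a (SE 0.12, adjusted p = 0.00816), by −1.17 when OSMI was added (SE 0.12, adjusted p = 0.00169) and by −1.80 between Veh and rhWnt3aOSMI (SE 0.12, adjusted p = 2.46e-05), which is 3.49-fold lower. The fall with rhWnt3a lost its call without Veh replicate 2 (adjusted p = 0.0568), without rhWnt3a replicate 1 (0.0619) and without rhWnt3a replicate 3 (0.0552). Within side A, with 1 library a group, this fall was −0.42, and within side B −0.74. The 2 falls that involve OSMI were called in all 19 alternatives. Gm38391, a transcript model on the other strand, shares 6.42% of the exonic bases of Plod2.

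Plod1 (chr4:147909753-147936767), a helical lysyl hydroxylase, fell when OSMI was added and was not called with rhWnt3a. Its level was 318, 367 and 342 CPM with Veh, 294, 296 and 315 CPM with rhWnt3a, and 143, 136 and 199 CPM with rhWnt3aOSMI. The rhWnt3aOSMI libraries lay below all others, with replicate 3 the highest of them. For rhWnt3a the log2 fold change was −0.18 (95% interval −0.54 to 0.18, adjusted p = 0.644), for added OSMI −0.92 (SE 0.16, adjusted p = 0.0137) and for rhWnt3aOSMI against Veh −1.10 (SE 0.16, adjusted p = 0.00177). The fall with added OSMI was −1.09 within side A and −0.61 within side B. It lost its call without rhWnt3a replicate 1 (adjusted p = 0.0521), rhWnt3a replicate 3 (0.0655), rhWnt3aOSMI replicate 1 (0.0904) or rhWnt3aOSMI replicate 2 (0.0856).

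Plod3 (chr5:136987019-136996648), whose product also carries the glycosyltransferase activities, was lower in both treated groups by less than the fold threshold. It was at 136, 148 and 146 CPM with Veh, 103, 117 and 95.7 CPM with rhWnt3a, and 115, 112 and 108 CPM with rhWnt3aOSMI. The log2 fold change with rhWnt3a was −0.45 (SE 0.12, adjusted p = 0.0429), and the one for rhWnt3aOSMI against Veh was −0.36 (SE 0.12, adjusted p = 0.0720). Without rhWnt3a replicate 2 the former was −0.53 (adjusted p = 0.0314) and passed both thresholds. Added OSMI gave 0.09 (95% interval −0.17 to 0.35, adjusted p = 0.664). Znhit1 on the other strand shares 11.7% of the exonic bases of Plod3, under the same limit on strand as for Loxl3.

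P4ha1 and P4ha2, the catalytic subunits of collagen prolyl 4-hydroxylase, had the same pattern over the groups. Both fell when OSMI was added, from rhWnt3a libraries that lay above the Veh libraries without a call. P4ha1 lies at chr10:59323296-59373304 and P4ha2 at chr11:54100095-54131665. The 250 bases before the RefSeq start of each are shown because both were named above as targets of hypoxia-inducible factor and had a promoter at hand. Promoters of Loxl4, Plod1 and Plod3 were also at hand and are not printed. That choice says nothing on whether those genes, or Lox and other members not named as targets, are targets too. Capitals mark ACGTG, a form of the core of the hypoxia response element, read on both strands. The other form, GCGTG, was neither marked nor counted, and both sequences hold it. Sequences are 5′ to 3′ along the gene (GRCm38.p6).
P4ha1, chr10:59323046-59323295, plus strand: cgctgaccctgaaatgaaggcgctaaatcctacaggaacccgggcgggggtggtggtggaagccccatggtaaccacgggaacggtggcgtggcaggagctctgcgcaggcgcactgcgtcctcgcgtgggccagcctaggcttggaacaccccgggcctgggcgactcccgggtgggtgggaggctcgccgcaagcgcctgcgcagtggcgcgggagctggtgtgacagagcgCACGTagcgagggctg
P4ha2, chr11:54100674-54100923, plus strand: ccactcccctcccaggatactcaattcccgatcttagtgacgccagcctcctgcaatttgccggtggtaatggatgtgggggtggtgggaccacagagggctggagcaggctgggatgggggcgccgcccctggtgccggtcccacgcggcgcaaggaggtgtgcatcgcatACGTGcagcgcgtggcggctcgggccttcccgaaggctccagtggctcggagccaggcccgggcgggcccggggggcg
The match in P4ha1 begins 16 bases before the start and that in P4ha2 78 bases before it. The P4ha2 window lies inside the gene span given above, so its distance refers to the RefSeq start, downstream of the first base of that span. ACGTG stood in 16.6% of all 32851 promoter windows of that length, and CTTTGAT, a core of TCF/LEF sites, in 3.21%. Of the 5 members with a promoter in the table, Plod3 held 1 match to each motif, while Loxl4 and Plod1 held neither, and P4ha1 and P4ha2 held no CTTTGAT. These are matches of letters, and whether a factor binds there was not measured.

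P4ha1 was at 331, 329 and 397 CPM with Veh, 405, 446 and 415 CPM with rhWnt3a, and 252, 258 and 263 CPM with rhWnt3aOSMI. The 3 groups did not overlap, with Veh replicate 3 close under the lowest rhWnt3a library. The change with rhWnt3a was 0.26 on the log2 scale (95% interval −0.03 to 0.55, adjusted p = 0.306). Adding OSMI lowered P4ha1 by a log2 fold change of −0.71 (SE 0.13, adjusted p = 0.0151), and rhWnt3aOSMI stood at −0.45 from Veh (SE 0.13, adjusted p = 0.0415), under the fold threshold. The call for added OSMI was lost without any single one of rhWnt3a replicates 1, 2 and 3 and rhWnt3aOSMI replicates 1 and 2 (adjusted p = 0.0550, 0.0595, 0.0686, 0.0917 and 0.0849), with log2 fold changes of −0.73 to −0.65. Within the sides it was −0.81 and −0.64.

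P4ha2 followed at a lower level, with 51.2, 51.5 and 61.5 CPM with Veh, 63.4, 70.6 and 71.0 CPM with rhWnt3a, and 44.9, 37.5 and 34.9 CPM with rhWnt3aOSMI. Its groups did not overlap either. The change with rhWnt3a was 0.32 (95% interval 0.01 to 0.63, adjusted p = 0.228), that with added OSMI −0.81 (SE 0.14, adjusted p = 0.0123) and that between Veh and rhWnt3aOSMI −0.49 (SE 0.14, adjusted p = 0.0421), again under the fold threshold. Without rhWnt3a replicate 3 or rhWnt3aOSMI replicate 2 the call for added OSMI was lost (adjusted p = 0.0636 and 0.0689). With the side of the axis as a term, P4ha2 was called lower in rhWnt3aOSMI than in Veh. That term was chosen after seeing the data, its axis came from these same libraries, and it called more of all genes.

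**Figure D2:**
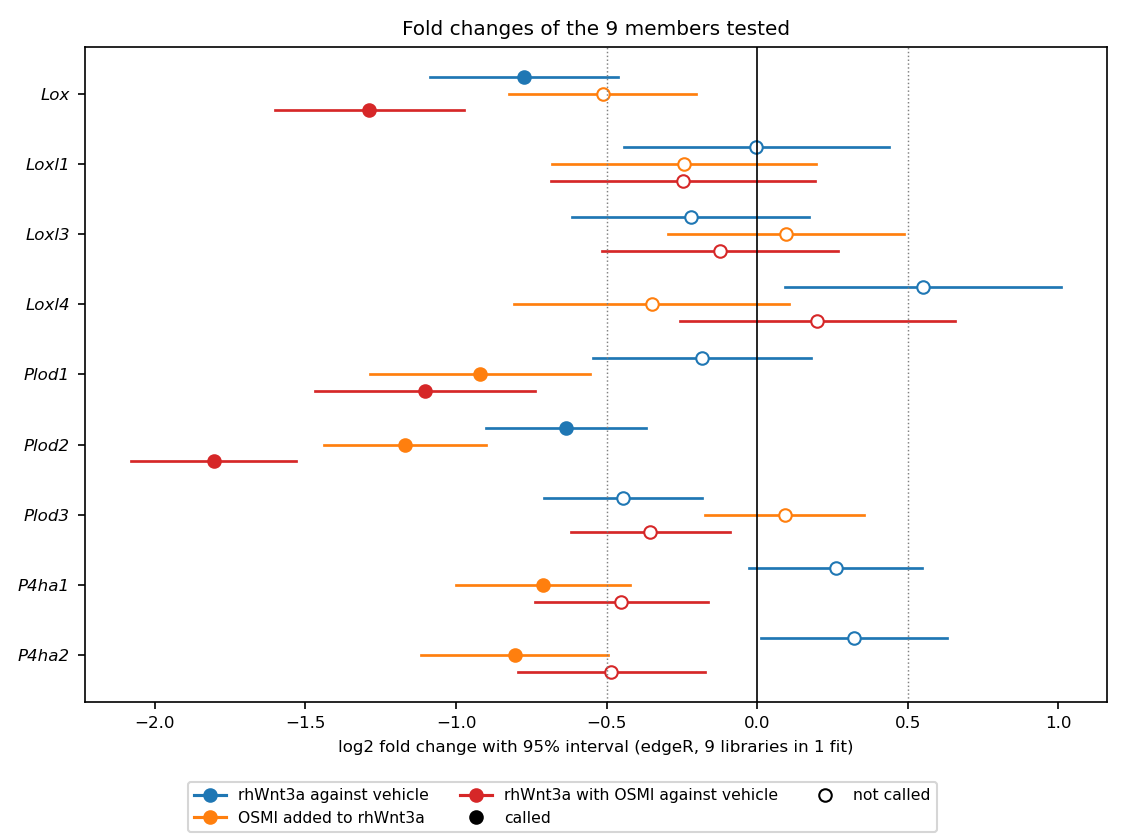
Points give the log2 fold change of the 9 members tested in each of the 3 comparisons, bars the 95% interval, filled points the calls, and dotted lines the fold threshold of 0.5. Plod2 is filled in all 3 comparisons, and P4ha1 and P4ha2 lie right of 0 with rhWnt3a and left of it in both comparisons with OSMI.

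Set against all tested genes, 2 of the 9 members tested fell with rhWnt3a (Lox and Plod2) and none rose, where 8.78% of all 14004 genes were called, 2.92% higher and 5.86% lower. With added OSMI, 4 members fell (Plod1, Plod2, P4ha1 and P4ha2) and none rose, against 4.74% of all genes called, 1.69% higher and 3.05% lower. Between Veh and rhWnt3aOSMI, 3 members fell (Lox, Plod1 and Plod2) and none rose, against 14.2% of all genes, 4.84% higher and 9.34% lower. Groups did not overlap for 6, 5 and 6 of the 9 members in the 3 comparisons, where 26.4%, 33.7% and 38.8% of all genes did not overlap. The median log2 fold change was −0.18, −0.51 and −0.45 over these members and 0.037, −0.015 and −0.0077 over all genes. The comparisons share their groups, so a member that is low in rhWnt3aOSMI enters 2 of them. By unadjusted edgeR p with the same fold threshold, Loxl4 was called higher with rhWnt3a and Lox lower with added OSMI, and DESeq2 added the same call of Lox but no member that rose. All genes called were then 15.4%, 16.2% and 22.8% by unadjusted p and 8.70%, 8.70% and 14.5% by DESeq2. Without the 3 libraries that lie apart, 4, 6 and 4 members were called, but so were more of all genes, at 18.1%, 12.7% and 23.7%, of which 6.70%, 3.99% and 8.02% were higher and 11.4%, 8.69% and 15.7% lower. Loxl4 was then higher with rhWnt3a (0.76) and lower with added OSMI (−0.61), Plod3 was lower with rhWnt3a (−0.55), Lox lower with added OSMI (−0.57) and Loxl1 lower in rhWnt3aOSMI than in Veh (−0.63), beside the calls already given.

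Per length, Lox made up most of the lysyl oxidase mRNA in every group. Its level was 572 ± 41.9 FPKM with Veh, 332 ± 9.30 with rhWnt3a and 234 ± 17.0 with rhWnt3aOSMI. In order of FPKM with Veh, Lox was followed by P4ha1 (84.5 ± 8.36), Plod1 (50.0 ± 3.43), Loxl1 (49.8 ± 4.34), Plod2 (42.3 ± 4.24), Plod3 (31.3 ± 1.22), Loxl4 (30.3 ± 4.56), P4ha2 (8.65 ± 0.84), Loxl3 (7.95 ± 1.59) and Loxl2 (0.032 ± 0.016). The ranges of the 3 libraries overlapped between Plod1 and Loxl1, Loxl1 and Plod2, Plod3 and Loxl4, and P4ha2 and Loxl3, and not between the other neighbours in that order. With rhWnt3aOSMI Plod2, at 12.1 ± 0.80 FPKM, stood below Plod3 (24.4 ± 0.42) and Loxl4 (34.7 ± 3.03), both of which it exceeded with Veh, and Plod1 (23.2 ± 5.55) stood below Loxl1 (42.0 ± 13.8) and Loxl4.

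The make-up of the lysyl hydroxylases shifted at both steps, and Plod3 gained share at the OSMI step. Its own FPKM was 22.8 ± 2.53 with rhWnt3a and 24.4 ± 0.42 with rhWnt3aOSMI, while Plod1 and Plod2 fell. Plod1 held 40.4% ± 1.73 of their summed FPKM with Veh, 46.8% ± 2.43 with rhWnt3a and 38.6% ± 5.16 with rhWnt3aOSMI. Plod2 held 34.2% ± 2.69 of the summed FPKM of Plod1, Plod2 and Plod3 with Veh, 28.9% ± 0.60 with rhWnt3a and 20.3% ± 1.25 with rhWnt3aOSMI. Plod3 went from 25.3% ± 1.17 and 24.4% ± 1.91 to 41.1% ± 4.28, with 43.8%, 43.3% and 36.2% in the 3 rhWnt3aOSMI libraries. The ratio of Plod2 to Plod3 was 1.51, 1.37 and 1.19 in the Veh libraries, 1.20, 1.11 and 1.26 with rhWnt3a, and 0.453, 0.501 and 0.533 with rhWnt3aOSMI, so that the last group lay below 1 in each library and the other 2 above it. Among lysyl oxidases the share of Lox was 86.7% ± 0.96, 76.9% ± 1.42 and 73.8% ± 2.66, that of Loxl4 4.61% ± 0.83, 10.1% ± 2.44 and 10.95% ± 0.33, and that of Loxl1 7.53% ± 0.17, 11.4% ± 1.29 and 13.0% ± 2.76. The level of Loxl1 itself was 49.8 ± 4.34 FPKM with Veh and 49.3 ± 4.29 with rhWnt3a. P4ha1 made up 90.7% ± 0.053, 90.4% ± 0.42 and 90.9% ± 1.27 of the sum of both alpha subunits. Its shares with Veh (90.65% to 90.75%) lay narrowly above those with rhWnt3a (89.87% to 90.64%). The rhWnt3aOSMI libraries were spread over both, from 89.49% to 91.96%. These shares are descriptions, with 3 libraries a group and no test.

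**Figure D3:**
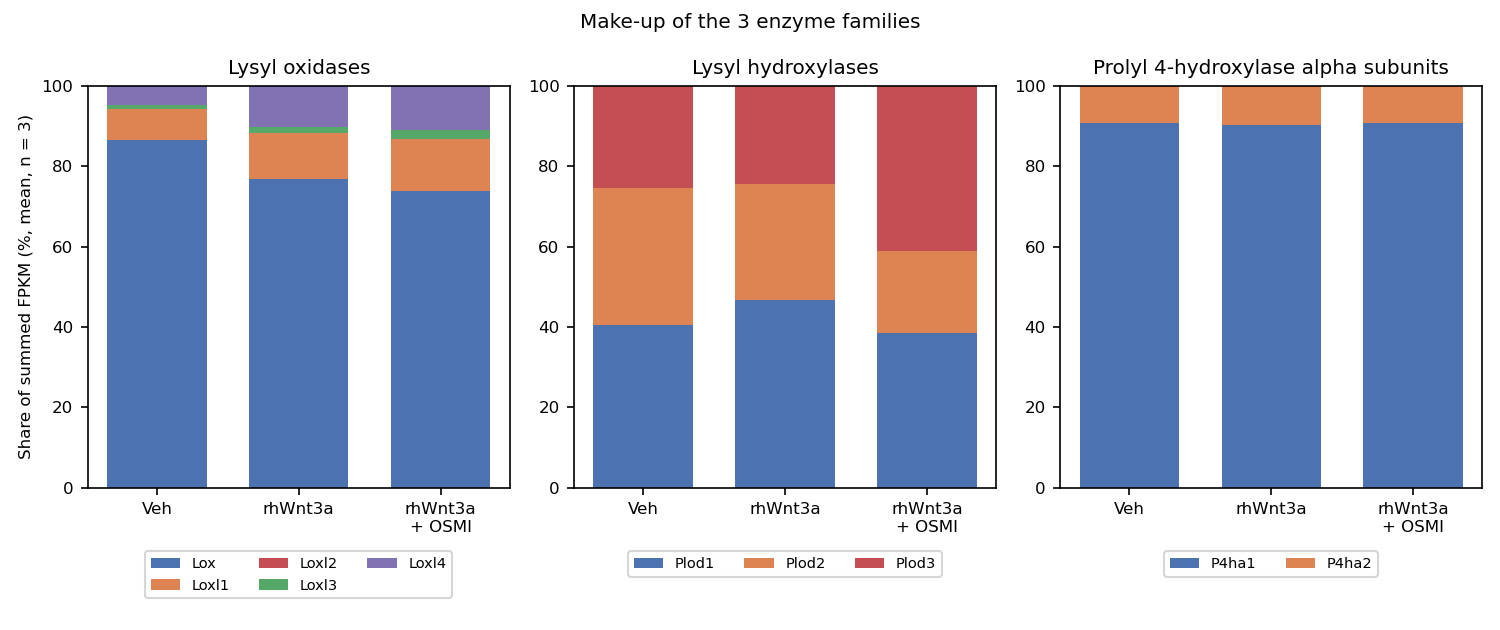
Bars stack the mean share (percent, n = 3) of each member in the summed FPKM of its family, by group, from 0 to 100%. Plod3 takes 41.1% of the lysyl hydroxylases with rhWnt3aOSMI against 25.3% with Veh, a gain in share without a rise in its FPKM over Veh. Lox loses share in both treated groups, and P4ha1 and P4ha2 stay at nearly the same proportion.

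The summed FPKM of the 5 lysyl oxidases was 660 ± 45.5 with Veh, 432 ± 12.2 with rhWnt3a and 318 ± 35.1 with rhWnt3aOSMI. For the lysyl hydroxylases it was 124 ± 6.16, 93.5 ± 3.34 and 59.7 ± 5.97, and for P4ha1 and P4ha2 together 93.1 ± 9.19, 111 ± 6.54 and 67.8 ± 1.86. The sums of both lysine-modifying families were lower at each step, and the prolyl 4-hydroxylase subunits were highest with rhWnt3a.

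Partners that fold and modify collagen were read from a list of 15 genes, of which 14 were tested. With rhWnt3a 1 rose and none fell, with added OSMI none rose and 2 fell, and between Veh and rhWnt3aOSMI none rose and 5 fell, with list medians of −0.20, −0.23 and −0.51. Of all genes, 2.92%, 1.69% and 4.84% were called higher in these comparisons and 5.86%, 3.05% and 9.34% lower. Without the 3 libraries that lie apart none rose, and 3, 3 and 7 fell, beside 11.4%, 8.69% and 15.7% of all genes. P4hb, the beta subunit that completes the prolyl 4-hydroxylase tetramer and also a general disulfide isomerase, was at 1061, 1036 and 1169 CPM with Veh, 1510, 1792 and 1480 CPM with rhWnt3a, and 590, 578 and 585 CPM with rhWnt3aOSMI. It rose by 0.55 with rhWnt3a (SE 0.14, adjusted p = 0.0373), fell by 1.45 on the log2 scale when OSMI was added (SE 0.14, adjusted p = 0.00149) and was at −0.90 from Veh (SE 0.14, adjusted p = 0.00246). The 2 falls were called in all 9 fits that left out a library, the rise in 2 of them, without Veh replicate 3 and without rhWnt3aOSMI replicate 3, with log2 fold changes of 0.46 to 0.62 over the 9 fits. With the 3 libraries that lie apart left out, the rise was 0.48, under the fold threshold.

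**Figure D4:**
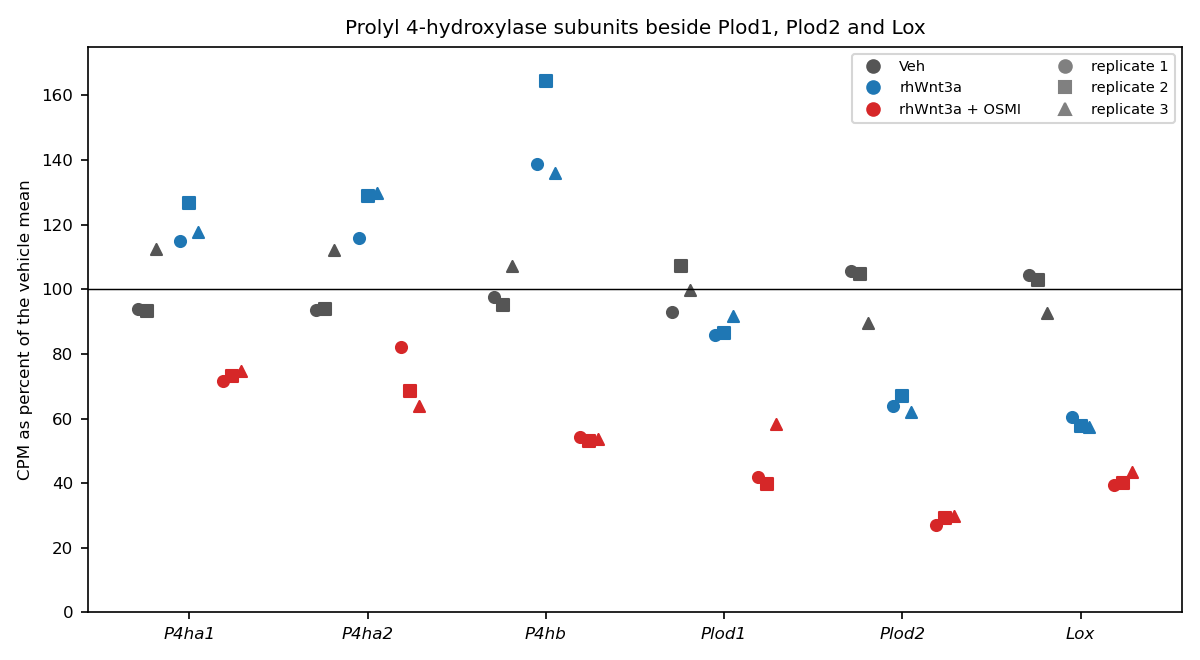
Points give the CPM of each library as a percent of the mean of the 3 Veh libraries, coloured by group and shaped by replicate number, for the prolyl 4-hydroxylase subunits and for Plod1, Plod2 and Lox. With rhWnt3a the subunits lie at 115% to 165% and Lox and Plod2 at 57.3% to 67.0%, and with rhWnt3aOSMI all 6 genes lie at 82.1% or less.

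The other partners called were all lower. Fkbp14, a prolyl isomerase of the endoplasmic reticulum, fell from 30.4 to 13.1 CPM with added OSMI (−1.21, SE 0.19, adjusted p = 0.00880). Fkbp10, a prolyl isomerase that acts with the Plod2 enzyme, fell from 289 CPM with Veh to 166 CPM with rhWnt3aOSMI (−0.80, SE 0.14, adjusted p = 0.00451). In that comparison Fkbp14 (−1.22), P3h4 (−0.59, a scaffold of lysyl hydroxylase 1) and P4ha3 (−1.03, the remaining alpha subunit, at 15.96 CPM with Veh) fell as well. The calls of Fkbp10 and Fkbp14 held in all 9 fits without a library, those of P3h4 and P4ha3 in 6 and 4 of them. Among partners that were not called, Serpinh1, the collagen chaperone HSP47 and the most abundant gene of the list, was at 1715 ± 241, 1814 ± 54.9 and 1343 ± 130 CPM (adjusted p = 0.869, 0.147 and 0.167). Colgalt1, a collagen galactosyltransferase, was at 273, 199 and 207 CPM, with −0.46 for rhWnt3a (adjusted p = 0.0326), under the fold threshold.

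Of 12 genes for procollagen processing and lysyl oxidase activation, 9 were tested, and 1, 3 and 5 of them fell in the 3 comparisons while none rose (medians −0.20, −0.66 and −0.84). Of all genes, 5.86%, 3.05% and 9.34% were called lower there and 2.92%, 1.69% and 4.84% higher. Without the 3 libraries that lie apart, 2, 6 and 7 fell and 2, 1 and 0 rose, beside 11.4%, 8.69% and 15.7% of all genes lower and 6.70%, 3.99% and 8.02% higher. Bmp1, the protease that cleaves procollagen and the Lox propeptide, went from 144 CPM with Veh to 117 with rhWnt3a and 74.0 with rhWnt3aOSMI (−0.96 from Veh, SE 0.18, adjusted p = 0.00666). Pcolce, an enhancer of that cleavage, fell from 808 to 279 CPM with added OSMI (−1.54, SE 0.16, adjusted p = 0.00171) and stood at −1.73 from Veh. Postn, a matrix protein that binds Bmp1, fell from 2829 to 861 CPM with added OSMI (−1.72, SE 0.29, adjusted p = 0.0112), with 599, 653 and 1331 CPM in the 3 rhWnt3aOSMI libraries. Tll1, a protease related to Bmp1, fell with added OSMI (−1.65, adjusted p = 0.0237) at 2.82 CPM, and Adamts2, the procollagen N-proteinase, fell from Veh to rhWnt3aOSMI (−0.84, adjusted p = 0.0351), calls that held in 4 and 2 of the 9 fits without a library. Tll1 was at 4.10 CPM with Veh and 8.90 CPM with rhWnt3a (1.12, adjusted p = 0.0641), groups that did not overlap. Between Veh and rhWnt3aOSMI Tll1 changed by −0.53 (adjusted p = 0.320). Efemp2, a fibulin that binds Lox, was lower with rhWnt3a (−0.66, adjusted p = 0.0246) and with rhWnt3aOSMI (−0.996, adjusted p = 0.00226) than with Veh. The first of these held in 5 of the 9 fits without a library and the fall of Postn with added OSMI in 7. Fbln5 (316, 229 and 318 CPM) and Atp7a, the copper pump that loads Lox (42.7, 39.8 and 39.3 CPM), were not called in the fit of all 9 libraries. Without the 3 libraries that lie apart, Fbln5 was called higher with added OSMI (0.54) and Atp7a lower in rhWnt3aOSMI than in Veh (−0.53).

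The substrates themselves were counted as 5 fibrillar collagen genes that were tested, Eln being at 0 to 3 counts a library. Col2a1, also a fibrillar collagen, was listed with the chondrocyte markers and is not among the 5. It fell with rhWnt3a (−3.40, adjusted p = 1.17e-05) and between Veh and rhWnt3aOSMI (−4.00, adjusted p = 5.82e-06). The median log2 fold change of the 5 genes with rhWnt3a was −0.20, with no call among them, and of these Col5a2 alone had an unadjusted p under 0.05. With added OSMI Col3a1 fell (−1.99, SE 0.37, adjusted p = 0.0170) and between Veh and rhWnt3aOSMI Col1a1 (−1.31, adjusted p = 0.0241), Col3a1 (−2.19, adjusted p = 0.00369) and Col5a2 (−1.02, adjusted p = 0.00934) fell. The calls held in 4 of the 9 fits without a library for Col3a1 with added OSMI, and in 5, 9 and 7 of them for Col1a1, Col3a1 and Col5a2 against Veh. In the fit of all 9 libraries 5.86%, 3.05% and 9.34% of all genes were called lower in the 3 comparisons. Without the 3 libraries that lie apart, 1, 5 and 5 of the genes fell, beside 11.4%, 8.69% and 15.7% of all genes. These genes were spread within the rhWnt3aOSMI group, with Col1a1 at 3191, 2707 and 6281 CPM and Col3a1 at 364, 317 and 965 CPM. Plod1 and Loxl1 likewise had their highest rhWnt3aOSMI level in replicate 3, whereas Plod2, P4ha1 and Lox in the same libraries spanned 62.3 to 68.9, 252 to 263 and 1097 to 1212 CPM. Col1a2 was at 9352, 8418 and 5649 CPM and Col5a1 at 951, 855 and 596 CPM, neither of them called in the fit of all 9 libraries.

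The hydroxylases that act on hypoxia-inducible factor use the same cofactors and were taken as a family beside the collagen enzymes. Of 5 tested, Egln1 rose with rhWnt3a from 82.7 to 129 CPM (0.64, SE 0.17, adjusted p = 0.0400), Egln3 fell with added OSMI from 2.05 to 0.66 CPM (−1.62, adjusted p = 0.0283) and Hif1an was higher in rhWnt3aOSMI than in Veh (0.61, adjusted p = 0.0387). These calls held in 2, 2 and 3 of the 9 fits without a library. Of all genes, 8.78%, 4.74% and 14.2% were called either way in the 3 comparisons. Egln2 was at 62.9, 65.0 and 56.8 CPM, and P4htm, a transmembrane relative, at 3.68, 2.79 and 2.27 CPM, with no call in the fit of all 9 libraries.

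Across the 9 libraries the log2 CPM of Plod2 went most closely with Lox (r = 0.96) and Plod1 (0.94), and P4ha1 with P4ha2 (0.95), whereas r was 0.49 between Lox and P4ha1. The points fall in 3 treatment groups, so these values describe the groups as much as the libraries. Among 11574 genes with an average log2 CPM above 1, those most like P4ha1 were P4hb (r = 0.984), Htra1 (0.976) and Ankrd29 (0.975). Those most like Plod2 were Echdc2 (0.992), Pdgfrl (0.991) and Fam69a (0.991), and those most like Lox were Itgbl1 (0.994), Bgn (0.991) and Clec14a (0.990).

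The stromal label was checked on 10 markers, with a summed level of 3944 to 4387 CPM with Veh, 2487 to 2854 CPM with rhWnt3a and 2397 to 3014 CPM with rhWnt3aOSMI. Itgb1, Cxcl12 and Pdgfrb made the largest parts of the Veh sum, with means of 1564, 1323 and 876 CPM. Vcam1 and Cxcl12 fell with rhWnt3a (−0.93 and −2.31), Vcam1 and Nt5e with added OSMI (−0.96 and −2.18), and all 3 between Veh and rhWnt3aOSMI. Of these Nt5e was low throughout, at 3.92, 4.53 and 0.998 CPM in the 3 groups. The other abundant markers were not called: Itgb1 was at 1564, 1170 and 1153 CPM, Pdgfrb at 876, 847 and 798 CPM and Pdgfra at 268, 311 and 192 CPM. Some values went the other way with added OSMI, with Cd44 at 0.73 (62.8 and 104 CPM, adjusted p = 0.0575) and Cxcl12 at 0.43 (266 and 358 CPM, adjusted p = 0.0971), and in both the groups did not overlap. Cd44 was called higher at that step without the 3 libraries that lie apart (0.79), where Pdgfra (−1.25) and Pdgfrb (−0.62) were called lower. Thy1 and Lepr were at 0 to 4 counts. Eng was also low, at 1.43, 1.67 and 0.864 CPM in the 3 groups, with no call in the fit of all 9 libraries. Fewer cells of a type and less mRNA per cell cannot be told apart in these bulk libraries. Of the chondrocyte markers, Col2a1 was at 163, 15.4 and 10.2 CPM and Sox9 at 189, 94.6 and 86.5 CPM in the 3 groups, both lower with rhWnt3a and with rhWnt3aOSMI than with Veh by call. The part of any of these markers in the results was not tested. Of the osteoblast markers Runx2 was at 52.5, 57.1 and 77.7 CPM, with log2 fold changes of 0.44 for added OSMI and 0.56 for rhWnt3aOSMI against Veh, groups that did not overlap and adjusted p of 0.203 and 0.0758. With the side of the axis as a term both were called (0.59 and 0.70), under the limits given for P4ha2. Sp7, Alpl and Bglap were at 0 to 8 counts a library. Ptprc, Cdh5 and Epcam, which define blood, endothelial and epithelial cells, were at 0 to 2 counts, and the summed levels of the 3 lists stayed at 0.35 to 1.98, 0.24 to 2.80 and 0 to 0.24 CPM. Emcn, an endothelial marker, gave 19, 34 and 22 counts with Veh and 0 to 2 counts in the treated libraries.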

How the data were processed

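The mRNA of 9 ST2 libraries was poly-A selected and sequenced for the authors by Novogene. Per the labels' processing notes, CASAVA, fastp, HISAT2 2.0.5 and featureCounts 1.5.0-p3 were used with mm10. The authors deposited a count of reads per gene, not normalized, and FPKM values; gene lengths from the same table gave counts per kilobase as an alternative to FPKM. Their fold changes and p-values per comparison (DESeq2, by the study's methods) were not used here.

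Counts were fitted with edgeR 4.0.16 in R 4.3.3 (filterByExpr with a minimum count of 10, TMM, glmQLFit, two-sided glmQLFTest, Benjamini-Hochberg over 14004 genes). The fit was tested on simulated data. The common dispersion was 0.0452. With 3 against 3 libraries an exact permutation test of 1 gene cannot go below p = 0.1. Correlations used log2 CPM with a prior count of 2. DESeq2 1.42.0 was an alternative. Promoters came from RefSeq (GRCm38.p6, 5 of the 10 members matched). GENCODE M21 was used for overlaps, and BLAST 2.17.0 searched for genes at least 97% identical over 100 bases. No such gene was found for Lox, Loxl1, Loxl4, Plod1, P4ha1 and P4ha2, and 15 were found for Loxl2; the matches of Loxl3, Plod2 and Plod3 were the overlapping genes given with them.

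The members and lists were chosen with earlier results of these data known. All 10 members were named, as were the list genes called in a comparison, at most 3 abundant others a list, and the 3 genes most like Lox, Plod2 and P4ha1. Leaving out replicates, other scalings and filters, a replicate block, and sides of the axis were alternatives. Same-numbered libraries did not deviate together in every pair, so the numbers were not taken as pairs. No floor or interval covers more than counting error or the spread between these libraries.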

Additional observations from a re-analysis of the deposited data

How the results depend on the processing

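The 27 log2 fold changes of members were recomputed in 19 alternatives, 513 values in all, of which 469 kept direction and side of the thresholds, 21 lost a call, 14 gained one and 9 changed sign. The sign changes concern Loxl1 with rhWnt3a (−0.0629 to 0.0803 without single replicates and 0.0113 with the side of the axis as a term), and Loxl3 with added OSMI (−0.0612 to 0.22 without single replicates and −0.10 without the 3 libraries that lie apart) and against vehicle (−0.28 to 0.0850 without single replicates). Plod2 with OSMI, in both comparisons, kept its call throughout. The member calls numbered 2, 4 and 3 for rhWnt3a, added OSMI, and rhWnt3a with OSMI against vehicle. At a log2 threshold of 1 they were 0 and 1 in the first 2, without the 3 libraries 4 in the first, and without single replicates 1 to 4 and 1 to 5 in the first 2. The replicate block left 2 of the 4 calls with added OSMI (P4ha1 and P4ha2 at adjusted p = 0.0659 and 0.0600) and 809, 233 and 1297 calls among all genes. Same-numbered libraries had correlations of deviations from −0.49 to 0.44, so they share only a number.

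Over all tested genes the calls numbered 1230, 664 and 1986. They were 2155, 2271 and 3186 by unadjusted p, 796, 380 and 1118 at a log2 threshold of 1, 2557, 1789 and 3351 without the 3 libraries, and 2033, 4033 and 4670 with the side of the axis as a term, an alternative chosen after seeing the data in which the axis was taken from the same libraries. Without single replicates they were 716 to 1506, 203 to 764 and 1218 to 2328. For added OSMI they were 1481 with every counted gene kept, 1236 by DESeq2 and 345 in a fit of its 6 libraries. The causes were not tested.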
